A study of Mus musculus with 12 samples.

Results

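Lungs of mouse embryos in which signalling through FGFR2b had been blocked for 9 h or 6 h were compared, as a single pool, with lungs in which it had not been blocked, and changes present at both times were sought. The comparison rested on all 12 one-colour Agilent arrays of the series: 6 blocked arrays, 3 per time, against 6 unblocked arrays, 3 from lungs with an inducible Fgf10 and 3 from control lungs. All 20738 genes with a named feature were tested, and 17 of them were changed at both times. A value is a log2 signal throughout, and a difference is the mean of the blocked arrays minus the mean of the unblocked arrays, so that a difference of 1 is a 2-fold change.

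The blocked lungs (LOF, loss of function) carried Rosa26rtTA, a doxycycline-dependent transactivator expressed in all tissues, and tet(O)solubleR2b, which it switches on, and were taken 9 h or 6 h after doxycycline. The gain-of-function lungs (GOF) carried Rosa26rtTA with tet(O)fgf10 and had doxycycline for 9 h, so they shared the transactivator and the drug with the blocked lungs. The control lungs were labelled wild-type with no treatment. In the methods of the study, however, the controls of the LOF experiment had the transactivator alone, were from the same litters as the LOF lungs, had the same maternal injection and were collected at either time, and GOF lungs are not described. Which description of the controls holds could not be settled. All animals were C57bl/6J by label, and the lungs were embryonic. For the LOF experiment, the study states that each blocked RNA sample came from a single lung and that the mother had a single injection of doxycycline. How the GOF lungs received the drug is not described. The soluble receptor is made everywhere and secreted, so the block is not confined to a cell type, and it binds every ligand of FGFR2b.

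FGFR2b is the receptor on the lung epithelium for FGF10, which the mesenchyme around the distal buds secretes. The receptor signals through the RAS and ERK kinases to the ETS transcription factors Etv4 and Etv5, and it is required for the buds to form and branch. A soluble FGFR2b without its membrane anchor captures the ligand outside the cell and so lowers the signal.

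The defining markers of the lung were present on every array. Nkx2-1, the transcription factor of lung epithelium, lay between 8.45 and 9.65, and Tbx4, a transcription factor of lung mesenchyme, between 10.50 and 11.23, against a median of 2.98 over all features. The induced genes did not mark the groups in which they were induced. The mean of the 10 features of Fgf10 was 7.42, 7.64 and 7.17 in GOF lungs, against 7.04, 7.42 and 7.26 in control lungs, and these ranges overlapped. In LOF lungs it was 7.90, 8.14 and 8.12 at 9 h and 7.15, 7.14 and 7.14 at 6 h. The mean of the 11 features of Fgfr2 was 4.81, 5.12 and 5.07 in LOF 9 h lungs and 5.41, 5.11 and 5.24 in LOF 6 h lungs. In unblocked lungs it ran from 4.99 to 5.29. The feature chosen for Fgfr2 differed by 0.18 between blocked and unblocked lungs (limma, adjusted p = 0.544). Where these features lie relative to the transgenes is not known, so the GOF label was not borne out here by its own gene. GOF 9 h array 1 stood apart from the other unblocked arrays for several genes, and heart muscle genes were unevenly spread over the arrays; both are taken up beside the results. By Xist, a transcript of female cells, all 3 LOF 9 h arrays were female (5.51 to 6.35) and all 3 LOF 6 h arrays low (1.94 to 2.36), so time and embryo sex cannot be told apart within the blocked lungs. LOF 6 h array 1 was also low for the Y-linked Eif2s3y (3.31, against 7.74 and 7.59 on the other 6 h arrays). GOF lungs had 2 female arrays and control lungs 2.

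Of the 20738 genes, 66 fell (0.318%) and 51 rose (0.246%) in the blocked lungs (limma, adjusted p under 0.05 over all genes), and 56 of these 117 changed at least 2-fold. The 6 blocked and 6 unblocked arrays did not overlap for 90 of the 117. Over all genes, 175 (0.844%) were lower without overlap and 197 (0.95%) higher. At 9 h, 42 genes fell (0.203%) and 23 rose (0.111%) relative to the 6 unblocked arrays. At 6 h, 51 fell (0.246%) and 34 rose (0.164%). Both of these comparisons use the same unblocked arrays. Changes that passed in the pool and at each time numbered 10 lower (0.0482%) and 7 higher (0.0338%), and the arrays of the sides did not overlap for any of these 17 genes. As the 17 were chosen on these same arrays, that separation is largely fixed by the choice. The pooled count depended on single arrays: it fell to between 32 and 59 when any 1 of 10 arrays was left out, and was 88 without GOF 9 h array 1 and 142 without GOF 9 h array 3. The count at both times fell to between 4 and 9 without any 1 of 9 arrays, and was 24, 13 and 18 without GOF 9 h array 1, 2 or 3. In the pool, at least 15 of the 17 genes passed whichever array was left out. Of the 117 genes, 24 passed whichever array was left out, 15 missed the threshold whichever was left out (Spry1, Bmp7, Aen, Ctnnd2 and Csf1r among the genes named here), and 78 missed it without 1 to 11 of the arrays. Etv5, Lin7a and Upk3a passed at both times whichever array was left out. Tspan8 and Gprc5a did so in 11 of these 12 fits, and each of the rest of the 17 in only 1 to 6.

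**Figure D1:**
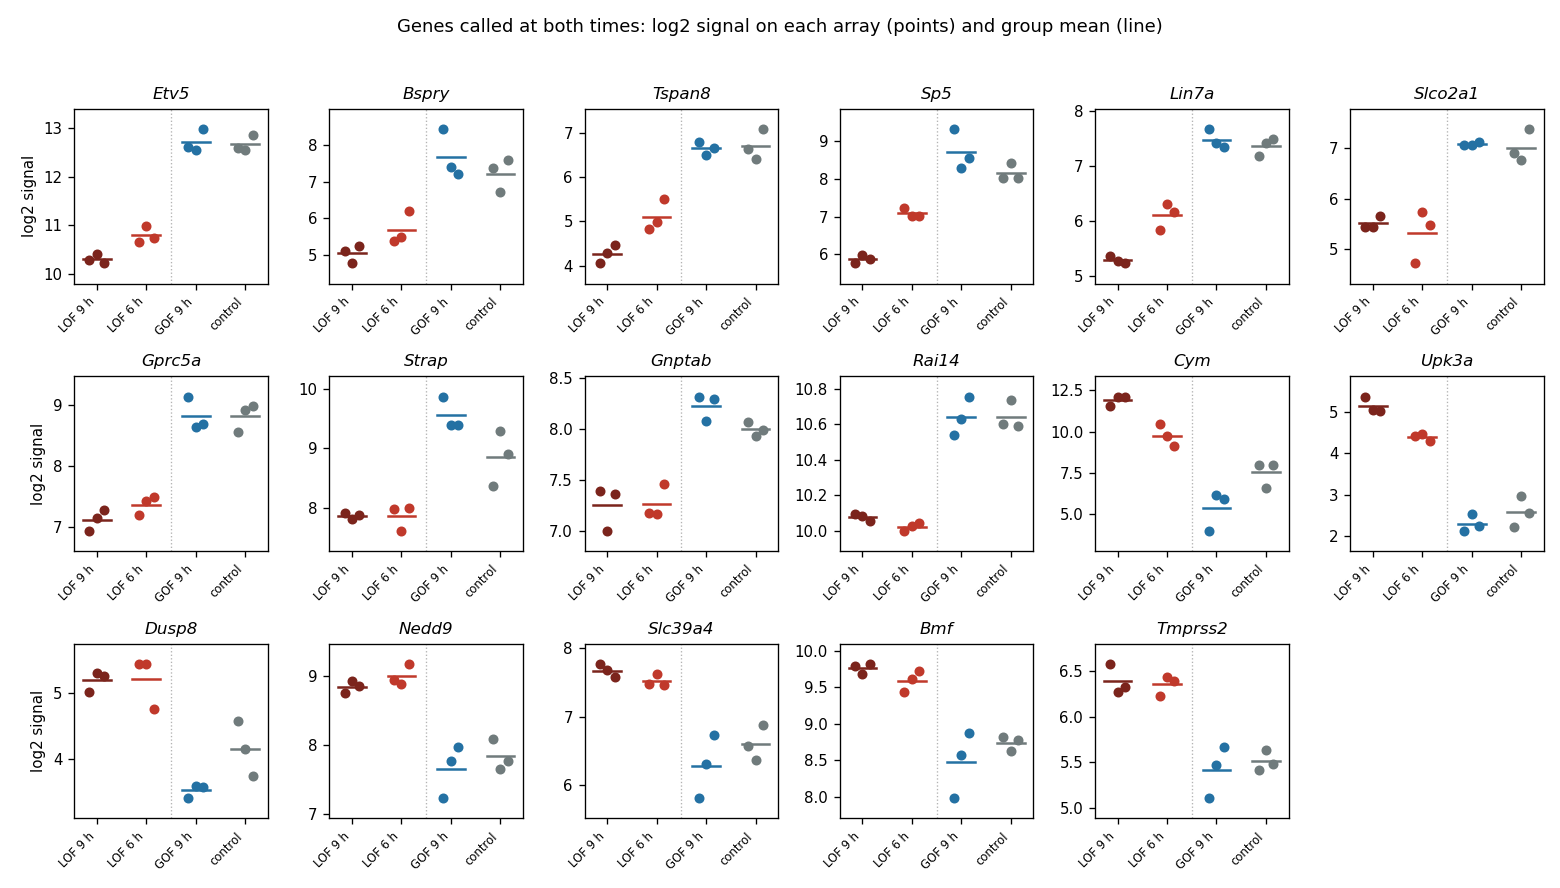
The log2 signal (vertical axes) on each array of the 17 genes that changed at both times, in LOF 9 h, LOF 6 h, GOF 9 h and control lungs; points are arrays, lines are group means, and each panel has its own scale that does not start at 0. In every panel the 6 blocked arrays left of the dotted line lie wholly below or wholly above the 6 unblocked arrays.

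The 10 genes that fell at both times were led by Etv5, an ETS transcription factor that FGF signalling switches on. All 10 belong to the signature that the study drew up for FGF10 from these blocked and control lungs. Their falls are therefore not independent of that choice. Etv5 measured 10.29, 10.40 and 10.21 in LOF 9 h lungs and 10.65, 10.99 and 10.74 in LOF 6 h lungs, against 12.61, 12.55 and 12.98 in GOF lungs and 12.58, 12.54 and 12.87 in control lungs. Its highest blocked array was more than 1.5 below its lowest unblocked array, and the GOF and control values overlapped. It fell by 2.14 ± 0.11 (SE, n = 6 against 6 arrays; adjusted p = 5.42e-05), by 2.39 ± 0.14 at 9 h and by 1.90 ± 0.14 at 6 h. It was the smallest p of the comparison.

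Bspry, which encodes a B-box and SPRY domain protein, had a lowest, median and highest signal of 4.76, 5.31 and 6.20 in blocked lungs, against 6.70, 7.38 and 8.43 in unblocked lungs. It fell by 2.08 ± 0.25 (adjusted p = 0.0108), and its highest value was on GOF 9 h array 1. Tspan8, a tetraspanin of the cell surface, had 4.05, 4.65 and 5.50 in blocked lungs, against 6.42, 6.64 and 7.08 in unblocked lungs. All 3 LOF 9 h arrays were below all 3 LOF 6 h arrays, and the pooled fall was 1.99 ± 0.15 (adjusted p = 4.88e-04). Sp5, a zinc finger transcription factor that WNT signalling switches on, had 5.76, 6.50 and 7.22 in blocked lungs, against 8.01, 8.35 and 9.31 in unblocked lungs. It fell by 1.95 ± 0.17 (adjusted p = 8.29e-04), with 5.76 to 5.99 in LOF 9 h lungs and 7.02 to 7.22 in LOF 6 h lungs.

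Lin7a, a scaffold protein of polarised cell junctions, was tightly separated. It measured 5.36, 5.27 and 5.23 in LOF 9 h lungs and 5.84, 6.30 and 6.16 in LOF 6 h lungs, against 7.67, 7.41 and 7.35 in GOF lungs and 7.19, 7.42 and 7.49 in control lungs, a fall of 1.73 ± 0.11 (adjusted p = 8.55e-05). Slco2a1, a prostaglandin transporter, had a lowest, median and highest value of 4.72, 5.47 and 5.75 in blocked lungs, against 6.76, 7.06 and 7.37 in unblocked lungs. It fell by 1.63 ± 0.18 (adjusted p = 0.00559), to about the same level at both times. Gprc5a, an orphan receptor first known for its induction by retinoic acid, had 6.94, 7.23 and 7.49 in blocked lungs, against 8.55, 8.80 and 9.13 in unblocked lungs, and fell by 1.58 ± 0.13 (adjusted p = 6.25e-04).

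The remaining 3 genes fell by less. Strap, a WD-repeat protein that binds TGF-beta receptors, ran from 7.61 to 7.99 in blocked lungs, against 8.36 to 9.87 in unblocked lungs, and fell by 1.35 ± 0.17 (adjusted p = 0.0109). The mean of its 2 features fell by only 0.76. Gnptab, a subunit of the enzyme that marks lysosomal proteins with mannose-6-phosphate, was at most 7.46 in blocked lungs, against at least 7.93 in unblocked lungs, and fell by 0.85 ± 0.11 (adjusted p = 0.0109). Rai14, an actin-binding ankyrin repeat protein, had closely spaced arrays, with a highest value of 10.09 in blocked lungs, against a lowest of 10.54 in unblocked lungs, and fell by 0.59 ± 0.08 (adjusted p = 0.0145).

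The largest rise was in Cym, which encodes chymosin, an aspartic protease known from the stomach of young mammals. It measured 11.58, 12.12 and 12.11 in LOF 9 h lungs and 10.43, 9.71 and 9.10 in LOF 6 h lungs, against 3.97, 6.16 and 5.89 in GOF lungs and 7.98, 6.60 and 7.97 in control lungs. All GOF values lay below all control values, so the size of its rise of 4.41 ± 0.42 (adjusted p = 0.0017) depended on the unblocked lungs: it was 5.50 over GOF and 3.32 over control lungs. Upk3a, a uroplakin that plates the surface of bladder epithelium, had 5.38, 5.06 and 5.03 in LOF 9 h lungs and 4.42, 4.46 and 4.29 in LOF 6 h lungs, against 2.12, 2.52 and 2.24 in GOF lungs and 2.22, 2.96 and 2.54 in control lungs. It rose by 2.34 ± 0.14 (adjusted p = 8.55e-05), and as its unblocked values were at or below the median of all features, the size of the rise is set in part by the dim end of the scale.

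The other 5 genes that rose at both times shifted by smaller amounts, with closely spaced blocked arrays. Dusp8, a phosphatase of the JNK and p38 kinases, had a lowest, median and highest signal of 4.76, 5.29 and 5.45 in blocked lungs, against 3.40, 3.66 and 4.58 in unblocked lungs, and rose by 1.37 ± 0.17 (adjusted p = 0.0109). Its 2 features disagreed: the mean of both features rose by 0.72 and missed the threshold (adjusted p = 0.298). Nedd9, a scaffold protein of focal adhesions, had 8.75, 8.91 and 9.18 in blocked lungs, against 7.23, 7.77 and 8.09 in unblocked lungs, and rose by 1.18 ± 0.14 (adjusted p = 0.0107). Slc39a4, a zinc importer, ran from 7.47 to 7.77 in blocked lungs, against 5.81 to 6.88 in unblocked lungs, and rose by 1.15 ± 0.16 (adjusted p = 0.0154). Bmf, a BH3-only protein that promotes apoptosis, ran from 9.44 to 9.82 in blocked lungs, against 7.98 to 8.87 in unblocked lungs, and rose by 1.07 ± 0.14 (adjusted p = 0.0150). Tmprss2, a serine protease of the epithelial surface, ran from 6.23 to 6.58 in blocked lungs, against 5.10 to 5.66 in unblocked lungs, and rose by 0.91 ± 0.12 (adjusted p = 0.0109). Between 9 h and 6 h, none of these 5 genes differed by more than 0.18. With 1 array left out, the change at both times was kept in 3 of 12 fits for Dusp8. It was kept in 2 of 12 fits for each of Nedd9, Slc39a4, Bmf and Tmprss2. Against control lungs alone, none of the 5 passed in the pool.

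The promoters of the 2 largest falls and the 2 largest rises among the 17 genes are shown as the sequence at the start of the leading genes. Each is 300 bases long, spans the first start listed by RefSeq (GRCm38.p6) and is given on the strand of the gene. Capitals mark matches to 4 short motifs, none of which is part of another. The motif of ETS factors was searched on both strands as CCGGAAGT. The motif of the TCF and LEF factors of WNT signalling was searched on both strands as TCAAAG. The GC box was searched on both strands as GGGCGG. The TATA box was searched only on the strand of the gene, as TATAAA.
Etv5, chr16:22439521-22439820, minus strand: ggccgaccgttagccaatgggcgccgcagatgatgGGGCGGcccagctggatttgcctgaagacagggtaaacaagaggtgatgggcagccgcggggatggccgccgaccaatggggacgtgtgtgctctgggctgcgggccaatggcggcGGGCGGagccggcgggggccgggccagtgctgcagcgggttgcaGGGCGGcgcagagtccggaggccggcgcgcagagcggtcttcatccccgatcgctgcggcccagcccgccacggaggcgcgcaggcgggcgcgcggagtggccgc
Bspry, chr4:62479812-62480111, plus strand: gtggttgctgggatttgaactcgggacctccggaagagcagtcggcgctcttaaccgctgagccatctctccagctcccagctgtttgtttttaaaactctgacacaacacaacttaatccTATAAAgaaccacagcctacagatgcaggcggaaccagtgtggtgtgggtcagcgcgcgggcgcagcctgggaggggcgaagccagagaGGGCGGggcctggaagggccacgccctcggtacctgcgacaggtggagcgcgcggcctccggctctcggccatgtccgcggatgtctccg
Cym, chr3:107221683-107221982, minus strand: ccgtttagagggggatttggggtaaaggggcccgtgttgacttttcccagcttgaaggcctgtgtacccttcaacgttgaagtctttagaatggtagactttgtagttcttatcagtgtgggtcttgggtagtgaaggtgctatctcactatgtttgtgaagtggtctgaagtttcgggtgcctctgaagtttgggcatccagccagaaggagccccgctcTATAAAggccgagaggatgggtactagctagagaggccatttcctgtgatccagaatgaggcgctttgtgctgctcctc
Upk3a, chr15:85016891-85017190, plus strand: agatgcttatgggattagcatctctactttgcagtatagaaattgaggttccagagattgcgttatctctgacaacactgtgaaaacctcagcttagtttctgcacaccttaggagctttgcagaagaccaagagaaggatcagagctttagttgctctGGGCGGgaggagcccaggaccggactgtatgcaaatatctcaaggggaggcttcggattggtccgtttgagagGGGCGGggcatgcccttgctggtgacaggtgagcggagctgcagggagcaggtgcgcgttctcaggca
The Etv5 promoter held 3 GC boxes, Bspry a GC box and a TATA box, Cym a TATA box and Upk3a 2 GC boxes. A RefSeq promoter was matched for 53 of the 66 lower genes and 38 of the 51 higher genes. The ETS letters were in 3.8% of the lower and 2.6% of the higher genes, against 6.0% of the 16416 measured genes with a promoter and 4.3% of all 27025 genes in the table. The TCF/LEF letters were in 15.1% of the lower and 5.3% of the higher genes, against 16.5% of the measured genes and 18.2% of all. The GC box was in 62.3% of the lower and 65.8% of the higher genes, against 51.7% of the measured genes and 38.2% of all. The TATA letters were in 11.3% of the lower and 5.3% of the higher genes, against 9.3% of the measured genes and 9.8% of all. A match is only a run of letters in this window.

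The difference between the times was tested directly. Across all genes, 3 were lower (0.0145%) and 10 higher (0.0482%) at 9 h than at 6 h, and 3 of these belonged to the 117 genes of the pooled comparison. Snhg16, a small nucleolar RNA host gene, had 9.09, 9.10 and 9.37 in LOF 9 h lungs and 7.19, 7.24 and 7.02 in LOF 6 h lungs, against 9.45 to 9.73 in unblocked lungs. Its pooled fall of 1.44 ± 0.09 (adjusted p = 8.55e-05) was thus mainly a fall at 6 h, and it was 2.03 ± 0.13 higher at 9 h than at 6 h (adjusted p = 3.25e-04). Lime1, an adaptor protein of lymphocyte signalling, did the same, with 8.23 to 8.38 in LOF 9 h lungs and 6.44 to 6.87 in LOF 6 h lungs, against 8.19 to 8.77 in unblocked lungs (9 h minus 6 h 1.68 ± 0.18, adjusted p = 0.0161). Pnliprp1, a pancreatic lipase-related protein, went the other way in time: it had 6.04 to 6.70 in LOF 9 h lungs and 3.23 to 4.37 in LOF 6 h lungs, against 1.64 to 2.72 in unblocked lungs (9 h minus 6 h 2.77 ± 0.36, adjusted p = 0.0326). Of the 17 genes changed at both times, 12 had the larger change at 9 h, among them Etv5, Lin7a, Tspan8, Sp5, Cym and Upk3a, but the difference between times passed for none of the 17. Of the 117 genes, 49 passed at 9 h, 46 at 6 h and 39 at neither time alone.

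**Figure D2:**
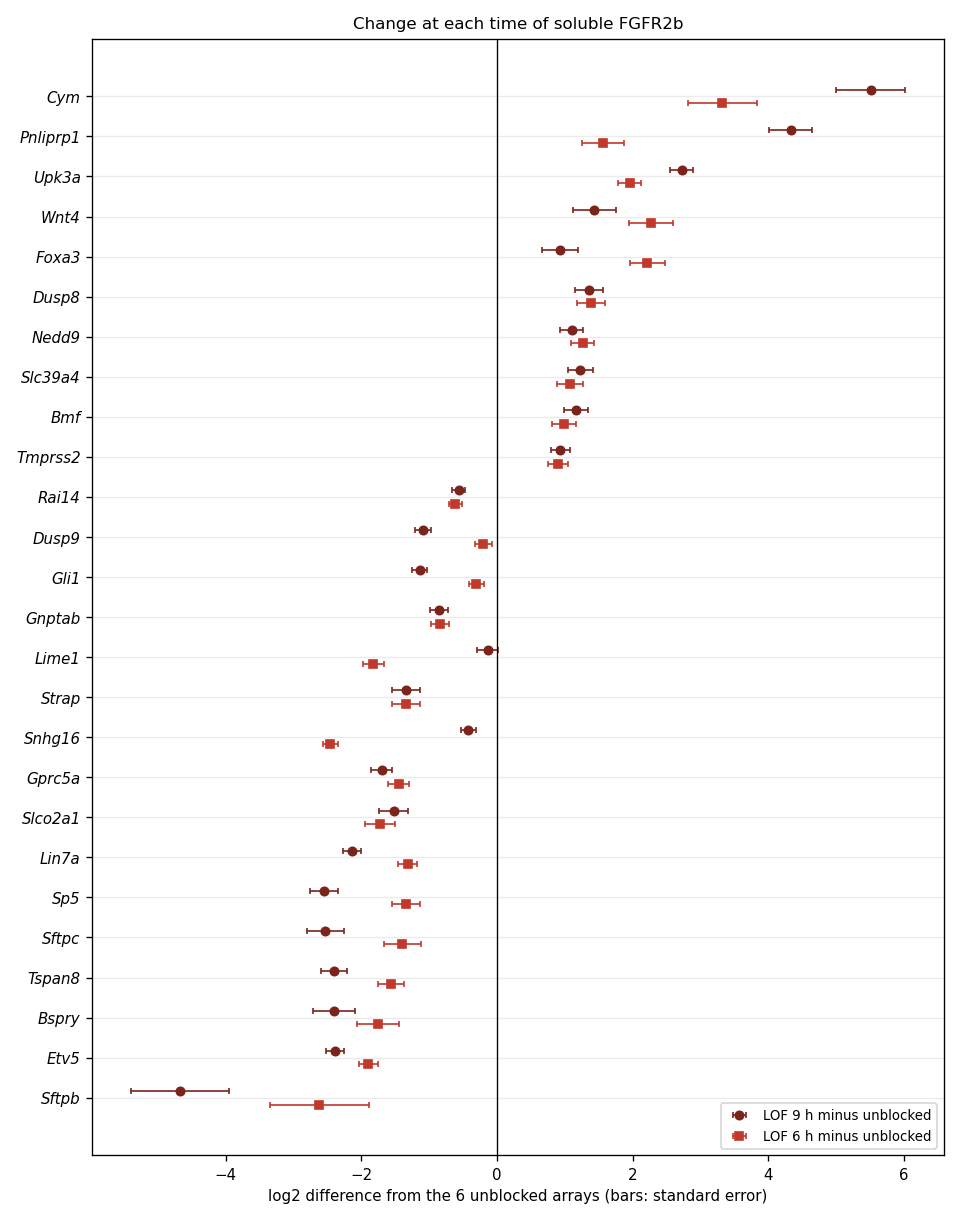
The log2 difference of LOF 9 h lungs (circles) and LOF 6 h lungs (squares) from the 6 unblocked arrays (horizontal axis), with standard errors, for the 17 genes changed at both times and 9 further genes of the pooled comparison. Snhg16 and Lime1 lie far from 0 at 6 h and near it at 9 h, and Pnliprp1, Sftpb and Cym lie farther from 0 at 9 h; of the plotted genes, the difference between the times passed for Snhg16, Lime1 and Pnliprp1 only.

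The unblocked side joined 2 kinds of lung, and the pooled result was therefore split by kind. All 117 genes kept their direction against GOF and against control lungs taken alone. The 117 were chosen on the mean of these 2 differences, so this is largely fixed by that choice. Against GOF lungs 67 of the 117 passed, and against control lungs 10. Both comparisons use the same 6 blocked arrays, so their counts are not independent. GOF and control lungs did not differ in any gene past the threshold (limma, smallest adjusted p = 0.178), and 1068 genes had an unadjusted p under 0.05, where 1037 are expected by chance. Of the 17 genes changed at both times, 7 passed against each kind of unblocked lung: Etv5, Tspan8, Sp5, Lin7a, Slco2a1, Gprc5a and Upk3a. For 28 of the 117 genes the change from GOF lungs was over 1.5 times that from control lungs. Hddc3, Plac9a, Tacr1 and Ntrk3 stood on low GOF values almost alone. Hddc3, for example, averaged 5.72 in LOF 9 h and 6.29 in LOF 6 h lungs, against 3.60 in GOF and 5.62 in control lungs, a difference of 2.40 from GOF and of 0.38 from control lungs.

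**Figure D3:**
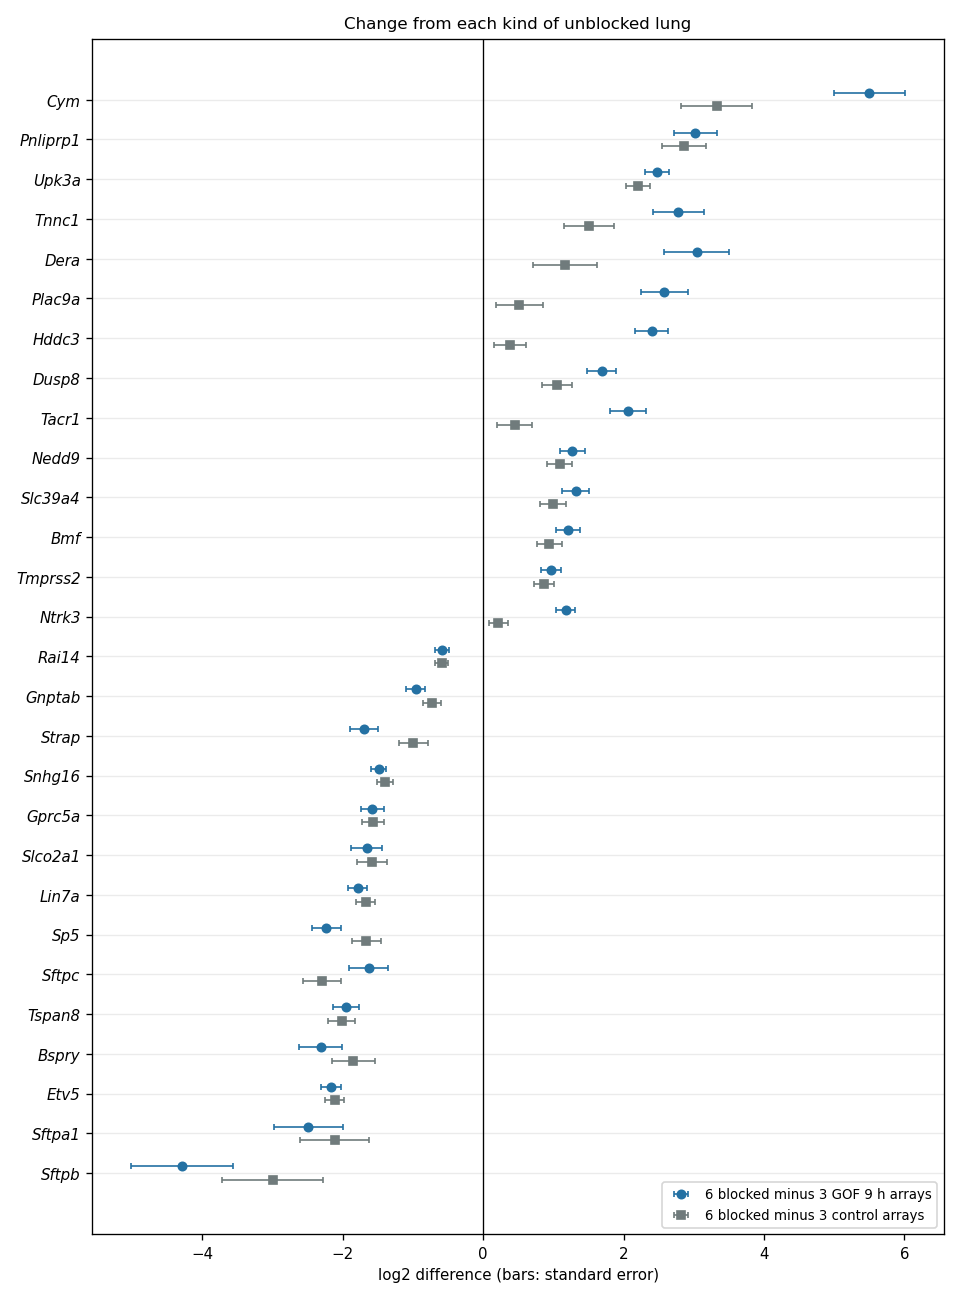
The log2 difference (horizontal axis, with standard errors) of the 6 blocked arrays from the 3 GOF 9 h arrays (circles) and from the 3 control arrays (squares), for the 17 genes changed at both times and 11 further genes. For Etv5, Lin7a, Gprc5a and Rai14 the points nearly coincide, while Hddc3, Plac9a, Tacr1 and Ntrk3 lie above 1 against GOF lungs and much closer to 0 against control lungs.

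Targets and feedback inhibitors of FGF and ERK signalling were mostly lower. Of 19 measured, 14 were below 0 and 3 fell, Etv5, Spry1 and Dusp9, with a median difference of -0.31, against 0.01 over all genes. Dusp9, a phosphatase of ERK, ran from 6.80 to 6.93 in LOF 9 h lungs and from 7.59 to 7.91 in LOF 6 h lungs, against 7.73 to 8.17 in unblocked lungs, and fell by 0.65 ± 0.10 (adjusted p = 0.0246). The difference between 9 h and 6 h did not pass (-0.90, adjusted p = 0.0558), and the pooled fall missed the threshold without any 1 of 8 arrays. Spry1, a feedback inhibitor of receptor tyrosine kinases, ran from 7.75 to 8.15 in blocked lungs, against 8.35 to 8.80 in unblocked lungs, and fell by 0.62 ± 0.12 (adjusted p = 0.0486); it missed the threshold whichever array was left out. Etv4, the partner of Etv5, averaged 8.28 in blocked and 9.49 in unblocked lungs and did not pass (difference -1.21, adjusted p = 0.0772). Dusp6, another ERK phosphatase, differed by -0.25 (adjusted p = 0.494). Among FGF ligands and receptors, none of 18 passed, and the median was -0.02.

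A list of 31 genes of the signature that the study had put together for FGF10, which is only a part of that signature, was also examined. These genes were chosen on these blocked and control lungs, so their direction is not independent evidence. All 30 that were measured were below 0, 24 fell, and 8 of these fell at both times, with a median of -1.19. The 6 that did not pass were Gprin3, Hopx, Shh, Klf16, Dhx33 and Apcdd1, with differences between -1.32 and -0.16. The full signature of the study holds every gene that fell at both times. It also holds Sftpb, Sftpa1, Pthlh, Lama3, Sema4f, Bid and Rrs1, which are reported in other sections.

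Genes of the distal tip, where the progenitors of the lung epithelium sit, moved in the same direction. Of 18 measured, 15 were below 0 and 4 fell, Etv5, Lin7a, Sftpc and Id2, with a median of -0.68. All 4 are also in the study's signature, so their falls are not a second, independent result. Id2, an inhibitor of bHLH factors that marks tip progenitors, ran from 9.44 to 10.25 in blocked lungs, against 10.63 to 11.98 in unblocked lungs. It fell by 1.20 ± 0.21 (adjusted p = 0.0423), and missed the threshold without any 1 of 9 arrays. Sox9, a transcription factor of the tip, averaged 6.26 in blocked and 7.61 in unblocked lungs and did not pass (difference -1.34, adjusted p = 0.0992). Nkx2-1 differed by -0.55 and Bmp4 by -0.64, neither past the threshold. Of 23 general epithelial genes none passed and 14 were below 0. At an unadjusted p under 0.05, 4 of them were lower and 6 higher, where 1210 of all 20738 genes were lower and 1370 higher. Their median was -0.09, and Cdh1 and Epcam differed by -0.03 and 0.30. In whole lungs, fewer cells of a type and less RNA per cell cannot be told apart.

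The largest fall of the comparison was in a surfactant gene, of a group that alveolar type 2 cells make later in development. Sftpb, a surfactant protein, measured 1.99, 2.41 and 3.25 in LOF 9 h lungs and 4.26, 4.84 and 4.72 in LOF 6 h lungs, against 10.35, 6.72 and 6.55 in GOF lungs and 6.52, 6.20 and 7.01 in control lungs. The sides did not overlap, but 1 GOF array was far above the rest. The fall of 3.65 ± 0.59 (adjusted p = 0.0313) was 3.03 without GOF 9 h array 1, and the mean of its 2 features, -2.18, did not pass (adjusted p = 0.113). Sftpc, the surfactant protein that marks the distal epithelium early, ran from 8.20 to 8.69 in LOF 9 h lungs and from 9.46 to 9.66 in LOF 6 h lungs, against 9.97 to 11.76 in unblocked lungs. It fell by 1.96 ± 0.23 (adjusted p = 0.00797) and passed at 9 h (adjusted p = 0.0046) but not at 6 h (adjusted p = 0.0691). The difference between the times did not pass for Sftpc (adjusted p = 0.265). Sftpa1 fell by 2.30 ± 0.40 (adjusted p = 0.0423). Sftpc passed whichever array was left out, while Sftpb missed the threshold without any 1 of 9 arrays and Sftpa1 without any 1 of 10. The other 19 of the 22 surfactant and type 2 genes did not pass, several of them at the dim end of the scale, and the median of the list was -0.13. Among 18 alveolar type 1 genes, Gprc5a and Akap5 fell and the median was -0.01. Akap5 missed the threshold without any 1 of 8 arrays. Pthlh is a secreted hormone of the lung epithelium that signals to the mesenchyme. It had a lowest, median and highest signal of 1.76, 3.47 and 4.22 in blocked lungs, against 5.70, 6.04 and 8.30 in unblocked lungs. It fell by 3.08 ± 0.50 (adjusted p = 0.0313), and missed the threshold without any 1 of 9 arrays.

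In the neighbouring signalling pathways single genes passed. Gli1, the transcription factor that Hedgehog signalling from the epithelium switches on in the mesenchyme, measured 9.44, 9.30 and 9.08 in LOF 9 h lungs and 10.16, 10.08 and 10.07 in LOF 6 h lungs, against 10.33 to 10.58 in unblocked lungs. It fell by 0.72 ± 0.09 (adjusted p = 0.0109), by 1.14 at 9 h and 0.31 at 6 h, and was the only one of 15 Hedgehog genes to pass. The difference between the times did not pass (adjusted p = 0.0558). Of 22 WNT targets and effectors 1 fell, Sp5, and the median was -0.09. Of 23 genes of the BMP and TGF-beta pathway Id2 and Bmp7 fell. Bmp7, a ligand, fell by 0.64 ± 0.11 (adjusted p = 0.0423) but missed the threshold whichever array was left out, and the list's median was -0.07. Of 22 WNT ligands and modulators 1 rose. This was Wnt4, a ligand that often signals without beta-catenin. It ran from 3.92 to 5.14 in blocked lungs, against 2.11 to 3.67 in unblocked lungs. It rose by 1.85 ± 0.26 (adjusted p = 0.0192), and missed the threshold without any 1 of 4 arrays. None of 17 Notch genes passed (median 0.07), nor any of 15 genes of the retinoic acid pathway (median 0.16).

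Cym and Pnliprp1, which encode digestive enzymes, had the largest rises of the comparison. Of 23 digestive enzyme and gastric genes 4 rose, Cym, Pnliprp1, Cblif and Capn9, while the remaining 19 did not pass and most of them lay near the dim end of the scale in both kinds of lung, so that the median was 0.04. Cblif, the intrinsic factor of the stomach, ran from 2.87 to 4.99 in blocked lungs, against 1.78 to 2.87 in unblocked lungs, and rose by 1.79 ± 0.29 (adjusted p = 0.0313). Its lowest blocked array lay just below its highest unblocked array, and its rise missed the threshold without any 1 of 8 arrays. All unblocked values of Cblif, Pnliprp1 and Upk3a, and the unblocked mean of Wnt4, were below the median of all features (2.98), and the sizes of these rises rest on signals at the dim end of the scale. Capn9, a calpain of the digestive tract, averaged 5.99 in LOF 9 h lungs and 3.41 in LOF 6 h lungs, against 2.99 in unblocked lungs, and rose by 1.72 ± 0.28 (adjusted p = 0.0313). Its difference between the times did not pass (adjusted p = 0.0558), and averaging both of its features gave a difference of 1.21 that did not pass either (adjusted p = 0.0858). The rise missed the threshold without any 1 of 10 arrays. Clps, the colipase of pancreatic fat digestion, was not on the list. It had 5.55, 6.06 and 6.43 as lowest, median and highest in blocked lungs, against 3.73, 4.78 and 4.98 in unblocked lungs. It rose by 1.40 ± 0.20 (adjusted p = 0.0228), and missed the threshold without any 1 of 9 arrays. Of 16 endoderm factors 1 rose: Foxa3, a forkhead factor of gut and liver endoderm, which measured 3.73, 4.29 and 4.63 in LOF 9 h lungs and 5.46, 5.99 and 5.08 in LOF 6 h lungs, against 2.79 to 3.67 in unblocked lungs (rise 1.57 ± 0.22, adjusted p = 0.0155, and 9 h minus 6 h -1.29, adjusted p = 0.181). Of 16 proximal airway, basal and neuroendocrine genes 12 were above 0 and Upk3a alone rose, with a median of 0.21. Sox2, the transcription factor of the proximal airway, averaged 7.16 in blocked and 6.27 in unblocked lungs and did not pass (difference 0.89, adjusted p = 0.107). Grhl3, a grainyhead factor of surface epithelia, was named after its values were seen. It had 5.51, 6.21 and 6.67 in blocked lungs, against 3.31, 4.40 and 5.13 in unblocked lungs. It rose by 1.89 ± 0.33 (adjusted p = 0.0423), and missed the threshold without any 1 of 11 arrays.

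**Figure D4:**
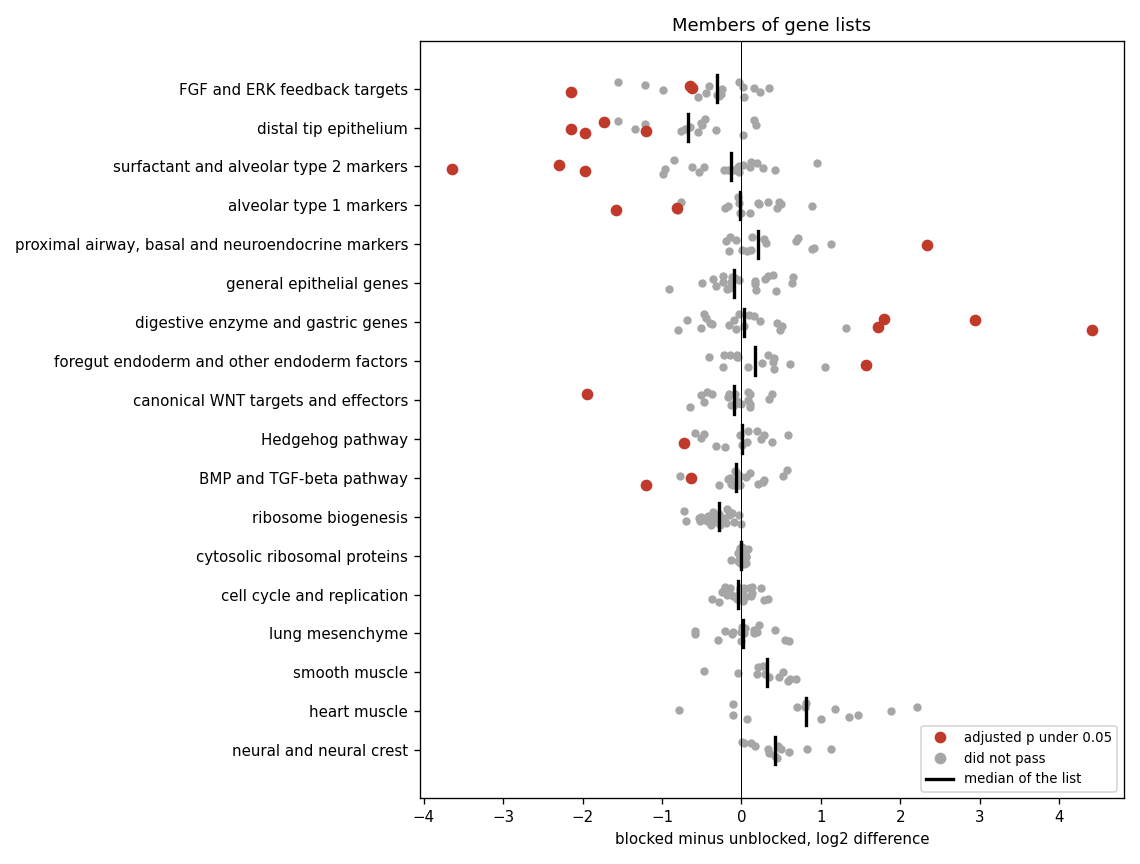
The log2 difference of blocked minus unblocked lungs (horizontal axis) for each measured member of 18 gene lists (rows); red points passed at adjusted p under 0.05, grey points did not, and black bars are list medians. The distal tip list has a median of -0.68 and the heart muscle list of 0.82 with no member past the threshold, while the digestive list has its 4 rises far from a cluster around 0.

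Markers of other tissues were unequal between the sides. Of 13 heart muscle genes 10 were above 0, with a median of 0.82, 1.14 against GOF and 0.54 against control lungs. None passed after adjustment. At an unadjusted p under 0.05, 8 were higher, where 1370 of all 20738 genes were. The summed linear signal of the list ran from 6180 to 19910 in blocked lungs, against 2363 to 11810 in unblocked lungs. Myl7, an atrial myosin light chain, was 8.76, 8.10 and 7.37 in LOF 9 h lungs and 9.73, 9.18 and 8.76 in LOF 6 h lungs, against 6.62, 6.28 and 6.89 in GOF lungs and 8.81, 7.63 and 6.83 in control lungs. Tnnc1, the troponin C of heart and slow muscle, was not on the list and was among the 117 genes, with a rise of 2.14 ± 0.29 (adjusted p = 0.0155). Myl2, Ryr2 and Pln averaged 3.40 to 3.57 in blocked and 3.50 to 3.60 in unblocked lungs. Over the whole list the differences ran from -0.79 to 2.22. With the level of the heart list as a covariate, an analysis chosen after seeing the data, 4 genes passed in the pool, Etv5, Lin7a, Upk3a and Snhg16, and none at both times. All 17 genes kept their direction there, with differences of 75.2 to 105.4% of those given above. The list's level and the block are partly collinear, and the part of the heart tissue in the other results was not tested further.

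The neural list was above 0 for all 13 genes, with none past the threshold and a median of 0.43. Its summed linear signal ran from 734 to 1068 in blocked lungs, against 515.5 to 877.7 in unblocked lungs. Of 12 smooth muscle genes 10 were above 0 and none passed, with a median of 0.32, and their level was lowest on GOF 9 h array 1, at 0.97 below the mean of all arrays. Of 16 macrophage and blood cell genes 1 rose, Csf1r, the receptor of macrophage growth, by 0.45 ± 0.08 (adjusted p = 0.0423), and 13 were above 0. Csf1r missed the threshold whichever array was left out, and the mean of its 3 features was 0.25 higher (adjusted p = 0.526). The 3 GOF arrays were the lowest of the 12 for this list. None of 19 lung mesenchyme genes passed (median 0.01). The part of these cells in the results was not tested.

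**Figure D5:**
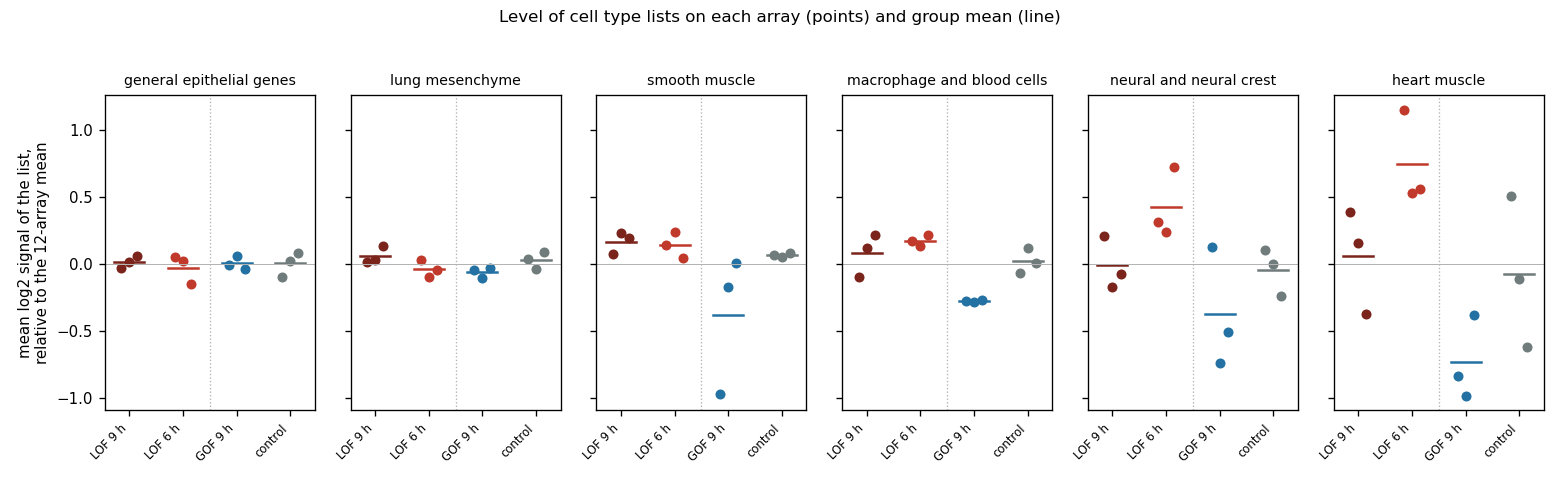
The mean log2 signal of 6 cell type lists on each array, relative to the mean of all 12 arrays (vertical axis), in LOF 9 h, LOF 6 h, GOF 9 h and control lungs; points are arrays and lines group means. General epithelial and mesenchymal genes stay near 0 on all arrays, while the heart list runs from 1.15 on a LOF 6 h array to -0.98 on a GOF array.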

How the data were processed

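RNA of 12 lungs was measured on one-colour Agilent mouse arrays of 62976 features. Before the values were deposited, the authors corrected the spot signals for background on negative controls (NormExp with an offset), took logarithms and quantile-normalized the arrays with limma. The base of the logarithm was not stated and was taken as log2 from the range of the deposited values (1.44 to 15.92). The deposited table held no depth, spot flags or background signals, and 10 of its values were missing.

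Features were named through RefSeq accessions or symbols: 31465 had a gene and 31511 had none. Each of 20738 genes was represented by 1 feature, which was the feature with the highest mean signal for the 6171 genes that had several. No filter on dim features was used. Means of the 4 groups were fitted with limma 3.58.1 in R 4.3.3 (lmFit and eBayes, 8 residual and 2.27 prior degrees of freedom), each side being the mean of its 2 groups, and p-values were adjusted over all genes by the Benjamini-Hochberg method with a threshold of 0.05. The median SE of a pooled difference was 0.187. A change at both times had to pass in the pool, at 9 h and at 6 h with the same sign. For a single gene, an exact permutation test of 6 against 6 arrays reaches its smallest two-sided p, 0.00216, when the sides do not overlap. The labels name samples of a group by number only, so p-values measure the spread between these lungs. The fit was tested on simulated data with known changes.

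The genes named were those changed at both times, the called members of each gene list with the smallest p (up to 3, or the 2 nearest where none was called), genes whose change differed between the times, and the induced genes. Clps, Grhl3, Tnnc1, Hddc3, Plac9a, Tacr1, Ntrk3 and the genes of the closing section outside the lists were named after their values were seen, as were some members that did not pass (Etv4, Dusp6, Sox9, Nkx2-1, Bmp4, Sox2, Cdh1 and Epcam among them). The comparison, its genes and the lists were chosen with earlier results of these data known. Alternatives were another unblocked side, centring, normalization, feature choice, filters, variance models, covariates, the replicate number as a block, and leaving out each array.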

Additional observations from a re-analysis of the deposited data

Results flagged for a closer look

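For the named genes, each side of 6 arrays was searched for a lowest or highest array far from the rest, over 206 sides of 103 genes. Chance alone sets apart an array in about 1 in 20 such groups, and 15 were found.

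GOF 9 h array 1 was the array set apart for 10 of these. It was the highest unblocked array for Sftpb (10.3518, with 7.0092 on the next array), Pthlh (8.303 and 6.4218), Id2 (11.9755 and 11.0642), Cytl1, a secreted cytokine-like protein (6.9328 and 5.7676), Bex4 (11.6236 and 11.1614), Fgf1, an FGF ligand (7.4683 and 6.0645), and Notch1, a Notch receptor (7.2245 and 5.8084). It was the lowest for Bmf (7.9804 and 8.568), Mxd4, a partner of MAX (7.2972 and 7.9391), and Tagln, a smooth muscle actin-binding protein (10.4137 and 11.4723). Fgf1, Notch1, Mxd4 and Tagln did not pass in the pooled comparison. Without that array the falls were 3.03 for Sftpb (limma, adjusted p = 0.00142), 2.65 for Pthlh (adjusted p = 0.0231), 2.28 for Cytl1 (adjusted p = 0.0487) and 1.07 for Bex4 (adjusted p = 0.00477), Id2 also fell (adjusted p = 0.0171), and Bmf rose by 0.95 (adjusted p = 0.00616). Of the 48 named genes that passed with all arrays, 35 passed without it and all 48 kept their sign. Without LOF 9 h array 3, 24 of the 48 passed and all kept their sign. The 48 were chosen by passing with all arrays, so their sign was nearly fixed in advance.

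Among the blocked arrays, LOF 6 h array 1 was lowest for Slco2a1 (4.7235, with 5.4461 on the next array). LOF 6 h array 2 was lowest for Trp53inp1, a p53 target (6.8385 and 7.3605), and for Dcn, a matrix proteoglycan (11.0975 and 11.5571), and highest for Pax1 (4.2446 and 3.0876). LOF 6 h array 3 was highest for Kiss1, the precursor of kisspeptin (6.1809 and 5.6606).

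The change differed between the times for Snhg16 (9 h minus 6 h 2.0339), Pnliprp1 (2.7671) and Lime1 (1.6826), by the test of the difference itself. Among the 31511 features without a gene name, 5 passed in the pooled comparison, 4 higher and 1 lower, and 3 of the 5 also passed at both times, while 1828 had an unadjusted p under 0.05.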

How the results depend on the processing

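None of the 117 pooled differences changed its sign under any of the 26 other settings in which the gene was fitted. The 117 were chosen by the size of that difference on the same arrays, so this is largely fixed in advance. With the blocked and the unblocked arrays each fitted as a single side, 64 genes passed in place of 117, and 3 features without a name in place of 5. Differences between the times and between GOF and control lungs then count as spread. Against control lungs alone 10 genes passed, 5 at both times, 15 at 9 h and 15 at 6 h, 957 did not overlap, and 7 of the 17 leading genes passed; Bspry, Strap, Gnptab, Rai14, Cym, Dusp8, Nedd9, Slc39a4, Bmf and Tmprss2 did not. Against GOF lungs alone 88 passed and 1289 did not overlap. Both counts without overlap are over all 20738 genes and set 6 arrays against 3. Such sides separate by chance more often than 6 against 6, so these counts cannot be compared with the pooled one. Counts rose when dim genes were left out: above the 25th percentile of mean level 223 passed, 117 at 9 h and 134 at 6 h, with 27 differing between times. Above the 50th percentile 489 passed, 91 at both times, 412 at 9 h, 308 at 6 h and 116 between times. With a variance trend and robust fitting the counts were 547, 113, 464, 381 and 161 in the same order. Array weights gave 114 at 9 h and 36 between times. A 2-fold minimum left 56 in the pool and 42 at 9 h. With Xist level as a covariate 131 passed in the pool, 6 at both times, 15 at 9 h, 33 at 6 h and 1 between times. With heart list level as a covariate, chosen after seeing the data, 4 passed, 0 at both times, 15 at 9 h, 1 at 6 h and 2 between times, and 3 of the leading genes. The 17 leading genes all passed in the pool under every other setting that kept all arrays, except that 15 did above the 50th percentile (Upk3a and Dusp8 were filtered out), 16 with the mean of all features (without Dusp8) and 14 with a 2-fold minimum; with that mean, Strap and Bmf also missed at both times. Median centring (111), cyclic loess (116) and the mean of features (103) changed the pooled count little. The cause of these changes was not tested.

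With the replicate number as a block, 40 passed, 7 at both times, 23 at 9 h, 51 at 6 h and 5 between times, with all 17 leading genes still passing in the pool. Etv5, Tspan8, Lin7a, Slco2a1, Gprc5a, Gnptab and Upk3a were the 7. The arrays were not taken as pairs: deviations of same-numbered arrays correlated between -0.0031 and 0.1027 over 18 pairs, 3 of them over 0.1, although all 12 arrays were on average closer to their own number, a hint from the data only.

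Leaving out 1 array gave 32 (LOF 9 h array 3 or control array 3) to 142 genes (GOF 9 h array 3) in the pool, 4 (LOF 6 h array 1) to 24 (GOF 9 h array 1) at both times, 15 (LOF 9 h array 3) to 80 (GOF 9 h array 3) at 9 h, 10 (LOF 6 h array 1) to 91 (GOF 9 h array 2) at 6 h, 1 (any LOF 9 h array) to 49 (GOF 9 h array 1) between times and 439 to 529 without overlap. Without LOF 9 h array 3, Rai14 and Bmf no longer passed in the pool. The 2 pooled sides were fitted only for the pooled counts, and the count of genes without overlap has no variance model, covariate or block.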

Other observations

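Genes of ribosome biogenesis were all lower in blocked lungs, without a single one passing the threshold. All 26 measured were below 0, with a median of -0.28, against 0.01 over all genes, and the lowest, Gnl3, a nucleolar GTP-binding protein, was at -0.72. Over all 20738 genes, 10024 were below 0. The highest difference of the list was -0.002, and its median was -0.40 at 9 h and -0.17 at 6 h. None passed (limma), and 14 had an unadjusted p under 0.05, where 1210 of all 20738 genes were lower at that p. Rrp9, a component of the small-subunit processome, differed by -0.70 (adjusted p = 0.0594). Rrs1 and Dimt1, factors of the same process outside the list, fell by 0.58 (adjusted p = 0.0322) and 0.51 (adjusted p = 0.0423). Rrs1 missed the threshold without any 1 of 10 arrays, and Dimt1 without any 1 of 11. The 25 cytosolic ribosomal proteins had 12 above and 13 below 0, none passed, and their median was -0.01. Of 27 cell cycle genes none passed, with a median of -0.04.

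Among 20 p53 targets and apoptosis genes Trp53inp1 rose by 0.90 (adjusted p = 0.0411), while Bid, a BH3-only protein, fell by 0.90 (adjusted p = 0.0155) and Aen, a nuclease of apoptosis, fell by 0.48 (adjusted p = 0.046), and the median was 0.08. Aen missed the threshold whichever array was left out, Trp53inp1 without any 1 of 10 arrays and Bid without any 1 of 2. Btg2, an antiproliferative gene, rose by 0.84 (adjusted p = 0.0333), and Ccng2, a cyclin of resting cells, by 0.80 (adjusted p = 0.0423). Btg2 missed the threshold without any 1 of 10 arrays, and Ccng2 without any 1 of 11. Atf4, the transcription factor of amino acid stress, fell by 0.58 (adjusted p = 0.0278), with differences of -0.29 at 9 h and -0.87 at 6 h that did not differ past the threshold (adjusted p = 0.162). Its 20 companions on the list did not pass, and the fall of Atf4 missed the threshold without any 1 of 9 arrays.

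Of the genes that act between cells, Hbegf, a ligand of the EGF receptor, fell by 0.88 (adjusted p = 0.0233), Sema4f, a semaphorin, by 1.64 (adjusted p = 0.0278) and Lama3, a laminin of the epithelial basement membrane, by 0.84 (adjusted p = 0.0341). The threshold was missed without any 1 of 9 arrays for Hbegf, 7 for Sema4f and 10 for Lama3. Tbx1, a T-box factor, had 10.53 to 10.88 in blocked lungs, against 8.36 to 9.83 in unblocked lungs. It rose by 1.30 (adjusted p = 0.0313), and missed the threshold without any 1 of 10 arrays. Of 13 genes often used as reference genes, Tfrc, the transferrin receptor, fell by 0.79 (adjusted p = 0.0467), and the other 12 did not pass. The fall of Tfrc missed the threshold without any 1 of 11 arrays.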
